A study of Homo sapiens with 6 samples.

Results

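The genes described here are 10 surface markers by which the maturation of myeloid cells is followed: ITGAM, ITGAX, ITGB2, CD14, CD33, CD38, FCGR1A, CSF3R, CSF1R and KIT. They were taken by symbol, and all 10 are among the 23368 gene symbols listed in the count tables. RNA was sequenced from NB4, an established human cell line derived from acute promyelocytic leukemia (APL), in which the PML/RARα fusion protein holds blasts at the promyelocyte stage. One group of 3 libraries came from cells left without treatment (not treated), and the other group of 3 came from cells given maltonis, a hydroxypyrone made from maltol, at 10 µM over 24 h. Both groups are the same line, so the whole comparison rests on 1 line, and the study describes the libraries as biological triplicates. No surface protein was measured here, and every value below is a transcript level.

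As a neutrophil or monocyte matures from a progenitor, its surface changes in a known order. KIT, the receptor for stem cell factor, marks early progenitors and is lost, and CD33 is present from the myeloid progenitor onward. ITGAM, which with ITGB2 forms the integrin CD11b/CD18, marks later stages, as do CD14 and CSF1R in monocytes. In APL cells, retinoic acid is known to raise CD11b and CD38 as the blasts mature.

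Total counts ran from 18492154 to 38205483 per library, and 3 counts, taken as the floor of detection, stood for 0.0785 to 0.162 CPM (counts scaled to a common library size), with only counting error taken into account. Levels are CPM scaled by the trimmed mean of M-values (TMM), and FDR is the adjusted p-value of edgeR's quasi-likelihood test over 13209 genes. The labelled identity was checked on promyelocyte genes: MPO, the peroxidase of azurophil granules, stood between 12892 and 15528 CPM in not treated cells, while the progenitor marker CD34 and HLA-DRA had at most 2 and 4 counts in a not treated library. ELANE, another azurophil granule gene, had only 3, 6 and 2 counts there. Of 21 markers of other cell types, 6 had no count in any library, among them MS4A1, HBB, HBA1, GP9 and PF4, but CD3D, NKG7, ITGA2B, EPCAM and NCAM1 were above 15 CPM in every not treated library. The summed level of these 21 genes was 161 to 176 CPM without and 113 to 116 CPM with maltonis, and its part in the results was not tested. The library names also carry a code of unstated meaning, which is one value for replicate 1 of both groups and another for replicates 2 and 3.

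Maltonis changed the markers in both directions. At an FDR under 0.01, KIT, ITGAM and CSF3R were higher and ITGB2, CD38 and CD33 were lower, while ITGAX, FCGR1A, CD14 and CSF1R did not pass the threshold. All 10 genes passed the filter on low counts, CD14 only through the maltonis-treated libraries. These 6 calls of 10 stand beside 64.0% of all tested genes called in either direction, with 31.9% called higher and 32.1% called lower, so the share of markers called was close to that of all genes. At an FDR under 0.05, which 74.0% of tested genes passed, 4 markers were higher and 5 lower. The median log2 fold change was −0.06 over the markers and 0.01 over all tested genes. For 5 of the 10 markers, the log2 fold change lay between the quartiles of all tested genes, −0.58 and 0.60. The groups did not overlap for 9 of 10 markers, against 76.6% of tested genes. In bulk RNA, a change in the share of cells that express a gene and a change in RNA per cell cannot be told apart.

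**Figure D1:**
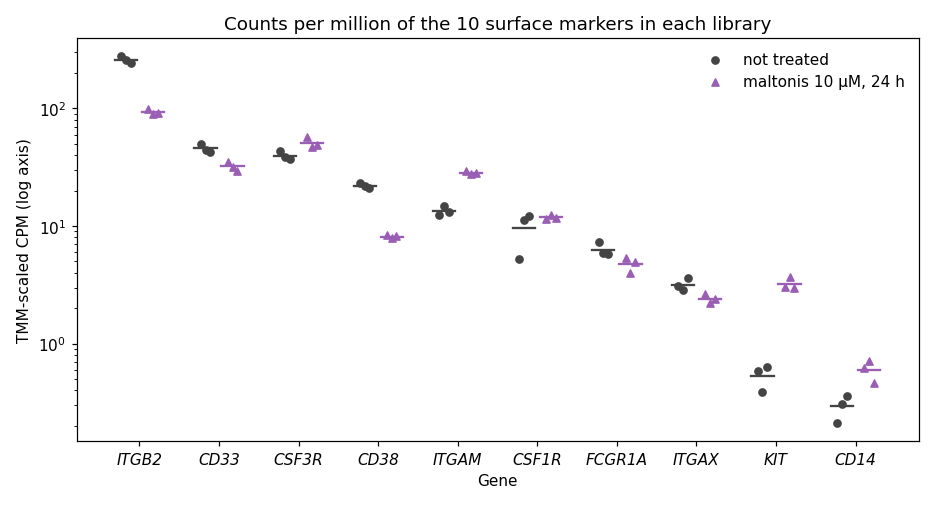
TMM-scaled CPM (log axis) of each of the 10 surface markers in the 3 not treated (circles) and 3 maltonis-treated (triangles) libraries, with the mean of each group as a line. KIT rises from below 1 to about 3 CPM and ITGB2 drops from 245 CPM or more to below 100 CPM, while the groups overlap only for CSF1R, where 1 not treated library stands low.

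A change beyond 2.50-fold with an FDR under 0.01, the fold criterion of the study, was met by 1 marker in the upward direction, KIT, and 2 in the downward direction, ITGB2 and CD38. Of all tested genes, 9.96% met it upward and 10.4% downward, 20.3% in all. With the further demand of more than 10 RPKM (CPM per kilobase of the gene's exons) in the higher group, only ITGB2 was left, at 38.3 RPKM. The sign was the same in replicate 1 alone and in replicates 2 and 3 for all 10 genes. For CSF1R, though, the log2 difference in replicates 2 and 3 was only 0.05. The log2 differences for the 6 called genes were 2.37 and 2.72 for KIT, 1.22 and 1.00 for ITGAM, 0.41 and 0.35 for CSF3R, −1.48 and −1.47 for ITGB2, −1.47 and −1.42 for CD38 and −0.50 and −0.52 for CD33.

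**Figure D2:**
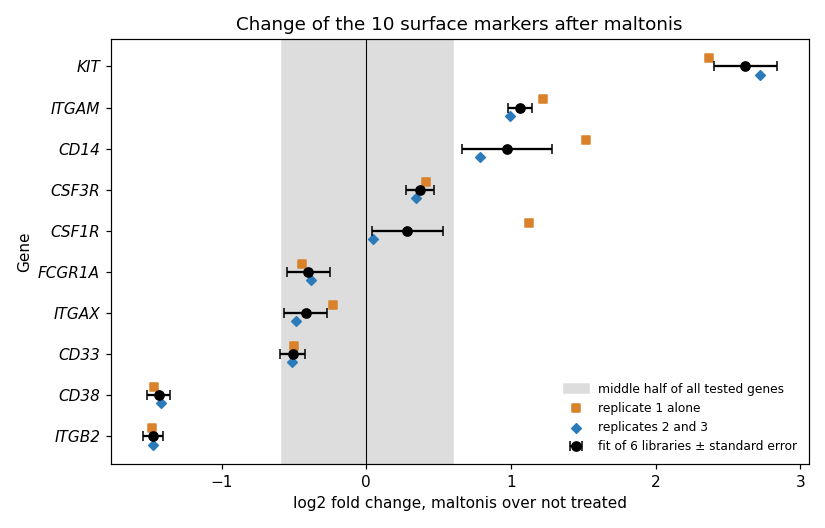
Log2 fold change of the 10 surface markers, maltonis over not treated, from the fit of 6 libraries with its standard error (black), beside the difference in replicate 1 alone (squares) and in replicates 2 and 3 (diamonds), with the span between the quartiles of all tested genes shaded. The squares and diamonds lie far apart for CSF1R (1.13 against 0.05) and CD14 (1.52 against 0.79) and close together for the 3 lower genes.

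The promoter windows of the markers with a log2 fold change beyond 1 in size are shown where the table of RefSeq promoters (GRCh38.p14, 250 bases before to 50 after the start) holds one, to give the sequence at the start of the genes that moved the most. Of the 10 markers, 8 had a window and ITGAX and ITGB2 had none. Each window is written 5′ to 3′ on the strand of the gene, and capitals mark matches, on either strand, to 4 sets of letters: GAGGAA (the core bound by the myeloid factor PU.1), TTGCNNAA (C/EBP), TTCNNTTTC (an interferon response element) and TTCNNNGAA (GAS, an interferon-gamma activated site).
ITGAM, chr16:31259725-31260024, plus strand: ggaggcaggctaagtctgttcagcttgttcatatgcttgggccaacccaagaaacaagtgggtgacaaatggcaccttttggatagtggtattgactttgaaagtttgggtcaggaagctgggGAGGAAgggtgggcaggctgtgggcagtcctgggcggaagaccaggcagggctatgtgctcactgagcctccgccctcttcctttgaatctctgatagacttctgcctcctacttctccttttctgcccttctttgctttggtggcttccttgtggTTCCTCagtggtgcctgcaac
KIT, chr4:54657707-54658006, plus strand: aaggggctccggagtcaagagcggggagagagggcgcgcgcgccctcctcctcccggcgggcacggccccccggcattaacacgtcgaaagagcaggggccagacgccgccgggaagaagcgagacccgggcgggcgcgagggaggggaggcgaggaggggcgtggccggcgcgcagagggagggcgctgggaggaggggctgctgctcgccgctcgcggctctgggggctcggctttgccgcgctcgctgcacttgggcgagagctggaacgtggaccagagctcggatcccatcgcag
CD38, chr4:15778078-15778377, plus strand: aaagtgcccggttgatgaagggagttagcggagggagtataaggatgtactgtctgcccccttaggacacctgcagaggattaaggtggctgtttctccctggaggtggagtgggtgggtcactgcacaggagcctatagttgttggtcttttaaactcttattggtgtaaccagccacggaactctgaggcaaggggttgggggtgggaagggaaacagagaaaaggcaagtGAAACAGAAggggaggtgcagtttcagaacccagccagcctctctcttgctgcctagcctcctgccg
The ITGAM window held GAGGAA 2 times, and that of CD38 held TTCNNTTTC once, on the reverse strand. None of the 4 sets of letters was in the KIT window. GAGGAA was in 27.9% of all 35116 windows of the table, TTGCNNAA in 10.5%, TTCNNTTTC in 8.11% and TTCNNNGAA in 7.66%. Among the windows not shown, those of FCGR1A and CD14 each held TTCNNNGAA once. GAGGAA was also found for CD14, CD33, FCGR1A, CSF3R and CSF1R, and TTGCNNAA for CSF3R. Such matches describe the letters of these windows and do not show binding.

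The integrin chains moved apart. ITGAM, which encodes the αM chain (CD11b) of the complement receptor of neutrophils and monocytes, stood at 12.5, 14.8 and 13.3 CPM in not treated cells and at 29.2, 27.5 and 28.3 CPM after maltonis. Every treated library was higher than every not treated one, and the mean rose from 13.5 ± 1.14 to 28.4 ± 0.850 CPM (SD, n = 3), with a log2 fold change of 1.06 (standard error 0.0840, FDR = 5.61e-06). ITGB2, the β2 chain (CD18) without which αM does not reach the surface, stood at 279, 257 and 245 CPM and fell to 99.9, 89.6 and 91.3 CPM. Its groups did not overlap, the mean fell by 64.0%, and the log2 fold change was −1.48 (standard error 0.0718, FDR = 3.59e-07). ITGAX, the αX chain (CD11c) of monocytes and dendritic cells, stood at 3.09, 2.87 and 3.59 CPM without and 2.63, 2.21 and 2.38 CPM with maltonis. The ITGAX groups did not overlap, but the log2 fold change of −0.42 (standard error 0.149, FDR = 0.0305) did not pass the threshold.

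Scaled by the summed exon length of each gene, ITGAM counts were 0.0537, 0.0686 and 0.0648 of the ITGB2 counts in not treated libraries and 0.350, 0.367 and 0.370 in maltonis-treated ones. The ratio was thus 5.81-fold higher after treatment, and it does not depend on the scaling between libraries (exact permutation test, two-sided, p = 0.1, the smallest that 3 libraries against 3 allow). All 4 α chains that pair with ITGB2 together gave a ratio that went from 0.0988 ± 0.00866 to 0.444 ± 0.0191 (SD, n = 3), so ITGB2 transcripts were in excess of their partners in both groups with these lengths. Among the α chains, the share of ITGAM went from 63.0% ± 3.16 to 81.6% ± 1.17 (SD, n = 3), with no overlap (exact permutation test, two-sided, p = 0.1). The share of ITGAL, the αL chain of LFA-1, went from 23.1% ± 2.25 to 12.7% ± 1.50, and that of ITGAX from 12.0% ± 1.55 to 5.57% ± 0.367 (SD, n = 3). ITGAL itself had a log2 fold change of −0.15 (standard error 0.128, FDR = 0.311), and ITGAD, the αD chain, had at most 18 counts in a library and was not tested.

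**Figure D3:**
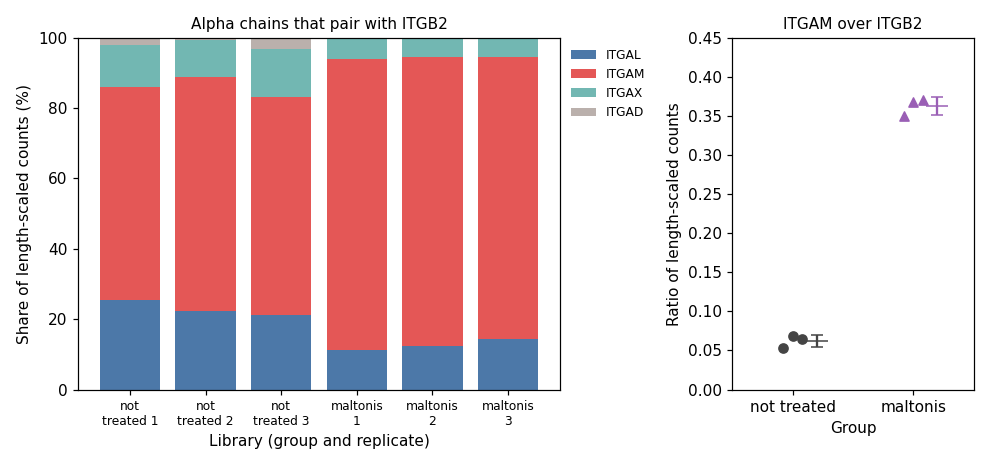
Left, share (%) of length-scaled counts held by each of the 4 α chains that pair with ITGB2, per library; right, ratio of length-scaled ITGAM to ITGB2 counts per library with the mean and SD of each group. ITGAM takes 60.5% to 66.5% of the α chains in not treated and 80.3% to 82.6% in maltonis-treated libraries, and its ratio to ITGB2 rises from 0.0624 to 0.362 on average.

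Of 21 integrin partners, ligands and adaptors, 19 were tested, 3 were higher and 6 lower, and their median log2 fold change was −0.21. ITGA6, the laminin receptor chain, and ITGA4, a chain of the VCAM1 receptor, fell with log2 fold changes of −1.70 and −0.91. ITGB1, the β chain that pairs with both, rose by 0.60 on the same scale, as did CYTH1, a regulator of β2 integrin adhesion, by 0.96. ICAM1 and ICAM2, ligands of the β2 integrins, fell to log2 fold changes of −1.31 and −1.12, and TLN1, the talin that links integrin tails to actin, to −0.84. ICAM3 and FERMT3 of the same list did not fall. Their log2 fold changes of 0.18 (FDR = 0.118) and 0.20 (FDR = 0.0229) did not pass the threshold.

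CD14, the co-receptor that hands lipopolysaccharide (LPS) to TLR4 on monocytes, was close to the floor. It had 4, 11 and 12 counts in not treated libraries (0.213, 0.304 and 0.362 CPM) and 12, 24 and 13 counts in maltonis-treated ones (0.620, 0.716 and 0.461 CPM). The groups did not overlap, but the log2 fold change of 0.97 (standard error 0.313, FDR = 0.0199) did not pass the threshold. TLR4 itself was well expressed and rose from 39.8, 42.9 and 42.2 CPM to 101, 105 and 106 CPM, 2.50-fold on average (log2 standard error 0.0607, FDR = 2.66e-07). LY96 (MD-2), the part of the receptor that binds LPS, had 0, 3 and 1 counts without maltonis and 19, 31 and 30 with it. These 4 counts against 80 gave a ratio of 21.8 with an exact 95% interval of 8.17 to 81.8, which covers counting error only. After maltonis LY96 stood at 0.981, 0.925 and 1.06 CPM, and like CD14 it passed the filter only through those libraries.

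Of 17 genes of the LPS receptor complex and its signaling, 14 were tested, with 6 higher, 5 lower and a median log2 fold change of 0.48. TLR1, TLR6 and IRAK4 rose with log2 fold changes of 1.05, 0.95 and 1.08, and TIRAP, the adaptor at the membrane, with 1.56. TLR2, which pairs with TLR1 and TLR6, fell to −0.57, and IRAK2 and TRAF6 to −1.23 and −0.99. MYD88, the adaptor shared by these receptors, was low in replicate 1 of both groups, the libraries that share 1 value of the library code. It stood at 1.70, 12.6 and 17.97 CPM (32, 458 and 596 counts) in not treated libraries. In maltonis-treated libraries it stood at 4.44, 11.1 and 13.5 CPM (86, 372 and 381 counts). Its log2 fold change of −0.18 (standard error 0.610, FDR = 0.799) does not exceed this spread.

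FCGR1A encodes CD64, the high-affinity receptor for IgG of monocytes and activated neutrophils. Its levels were 7.30, 5.85 and 5.79 CPM in not treated libraries and 5.37, 3.997 and 4.97 CPM after maltonis. All treated libraries were lower than all not treated ones, but by a gap smaller than the range within either group, and the log2 fold change of −0.40 (standard error 0.151, FDR = 0.0382) did not pass the threshold. The assignment of reads between FCGR1A and its near copies is uncertain. FCGR1B fell from 2.72, 2.68 and 2.38 to 0.620, 0.865 and 0.852 CPM, a log2 fold change of −1.69 (standard error 0.180, FDR = 3.56e-05).

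The other Fc receptors did not follow one direction. Of 16 listed Fc receptor genes and kinases, 11 were tested, with 5 higher, 3 lower and a median of 0.62. FCER1G, the signaling γ chain on which CD64 depends, fell from 9.37, 8.28 and 7.63 CPM to 3.72, 2.18 and 2.52 CPM (log2 fold change −1.62, standard error 0.187, FDR = 5.99e-05). FCGR2A, an activating receptor that carries its own signaling motif, rose from 14.8, 12.6 and 11.4 CPM to 39.5, 35.4 and 35.4 CPM (log2 fold change 1.52, standard error 0.104, FDR = 2.42e-06). Its reads are also shared in part with FCGR2B and FCGR2C. FCAR, the IgA receptor, and FCGRT, the neonatal Fc receptor, rose with log2 fold changes of 1.75 and 1.92, and SYK, the kinase downstream of the γ chain, fell to −1.31.

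CD33, a sialic acid-binding lectin (Siglec) with inhibitory motifs that is found on nearly all myeloid blasts, stood at 49.7, 44.7 and 43.1 CPM in not treated cells. After maltonis it stood at 35.2, 31.7 and 29.7 CPM, below every not treated library. The mean fell by 29.8%, and the log2 fold change was −0.51 (standard error 0.0885, FDR = 0.000738). Of 16 listed Siglecs and their partners, 11 were tested, 7 were higher and 2 lower, and the median was 0.75. The lower genes were the phosphatases PTPN6 (SHP-1) and PTPN11 (SHP-2), which bind the inhibitory motifs, with log2 fold changes of −0.90 and −0.43. SIGLEC5, SIGLEC7, SIGLEC8, SIGLEC10 and SIGLEC12 rose with values from 0.48 to 1.09, so CD33 was the only Siglec called lower among the tested ones. The SIGLEC7 call was lost in DESeq2 (FDR = 0.0197) and without not treated replicate 2 or 3 or maltonis replicate 2 or 3 (FDR from 0.0140 to 0.0236). SIGLEC1, the macrophage sialoadhesin, had 1 count over the 3 not treated libraries and 248 over the treated ones, a ratio of 270 with an exact 95% interval of 48.0 to 10696 for counting error only, and it passed the filter only through the treated libraries. TYROBP (DAP12), the adaptor of activating receptors, rose by 1.42 on the log2 scale. Siglec genes are similar in sequence, and the split of reads between close pairs such as SIGLEC5 and SIGLEC14 is uncertain.

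CD38, the NAD-consuming ectoenzyme that retinoic acid raises in APL cells, fell. Its levels were 23.1, 21.9 and 21.1 CPM in not treated libraries and 8.37, 7.84 and 8.20 CPM after maltonis. The groups were tight and far apart, the mean fell by 63.1%, and the log2 fold change was −1.44 (standard error 0.0823, FDR = 8.44e-07). BST1 (CD157), the paralog of CD38, stood at 0.852, 1.55 and 0.995 CPM and at 0.258, 0.507 and 0.745 CPM, a log2 fold change of −1.15 (standard error 0.359, FDR = 0.0175) that did not pass the threshold. Of 13 listed genes of NAD use and synthesis, which include the CD38 ligand PECAM1, 8 were tested, with 5 higher, 2 lower and a median of 0.61. NMNAT1 and NMNAT2, which make NAD, rose with log2 fold changes of 2.33 and 3.37, and SARM1, another NAD-cleaving enzyme, with 3.71. It had 1, 4 and 3 counts without and 31, 36 and 32 with maltonis, and passed the filter only through the latter. NAMPT, the rate-limiting enzyme of NAD salvage, fell to −0.45, and ART3, an ADP-ribosyltransferase relative, to −1.30.

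CSF3R, the receptor for granulocyte colony-stimulating factor, stood at 43.3, 38.4 and 36.9 CPM without and 57.5, 47.2 and 48.5 CPM with maltonis. The lowest treated library was above the highest not treated one, and the log2 fold change was 0.37 (standard error 0.0974, FDR = 0.00766). This call was lost when any library other than not treated replicate 1 was left out, with log2 fold changes from 0.26 to 0.40 and FDR values from 0.0112 to 0.0340. KIT was the marker with the largest change: 11, 14 and 21 counts in not treated libraries (0.586, 0.386 and 0.633 CPM) became 59, 123 and 83 counts (3.05, 3.67 and 2.95 CPM). The mean was 6.02-fold higher, with a log2 fold change of 2.62 (standard error 0.218, FDR = 7.61e-06), and 2.76% of all tested genes had a change as high or higher. Its level after treatment was still the 3rd lowest of the 10 markers per kilobase.

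CSF1R, the receptor for macrophage colony-stimulating factor, was the only marker whose groups overlapped. Not treated libraries stood at 5.27, 11.2 and 12.2 CPM and maltonis-treated ones at 11.5, 12.5 and 11.8 CPM, so that replicate 1 without treatment stood apart from all other libraries. The log2 fold change was 0.28 (standard error 0.247, FDR = 0.323), and it was 0.02 (FDR = 0.875) without not treated replicate 1. In replicate 1 alone the log2 difference was 1.13, while replicates 2 and 3 gave 0.05. The interaction of treatment with the library code was −1.07 on the log2 scale (FDR = 0.0461), a threshold of 0.05 that 1.03% of tested genes passed in that fit.

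Of 18 other cytokine receptors and ligands, 9 were tested, with 4 higher, 3 lower and a median of −0.24. FLT3, a progenitor receptor of the same kinase class as KIT and CSF1R, fell from 16.4, 15.6 and 16.0 CPM to 6.25, 7.46 and 6.18 CPM (log2 fold change −1.26, standard error 0.101, FDR = 6.25e-06), opposite to KIT. CSF2RB, the β chain shared by the receptors for GM-CSF, IL-3 and IL-5, rose by 0.85 on the log2 scale and EPOR by 1.16. Of the ligands, CSF1 fell to a log2 fold change of −1.80 and FLT3LG rose by 3.03, while CSF3 had at most 5 counts in any library and KITLG had no count without treatment and 2, 10 and 1 with it. CSF2RA had at most 3 counts and IL3RA none. Both have identical copies on X and Y, so these counts are uncertain as levels.

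Markers of other stages are given by counts. Of 37 other maturation surface genes found in the tables, 22 were tested, with 5 higher, 10 lower and a median of −0.27. ANPEP (CD13), FUT4, which makes the CD15 epitope, and CR1, a complement receptor, fell with log2 fold changes of −0.88, −0.68 and −1.58. TREM1, an amplifier of inflammation, and TNFRSF1B, a TNF receptor, fell the most, to −2.77 and −2.003. CD86, a co-stimulatory ligand of antigen-presenting cells, and LILRB4, an inhibitory receptor of monocytes, rose the most, by 2.83 and 1.83 on the log2 scale, the second having passed the filter only through the treated libraries. The late granulocyte genes MME (CD10) and CEACAM8 (CD66b) had no more than 1 count in any library of either group. Of 12 markers of immature cells, 3 were tested and TFRC and CD9 were lower, with log2 fold changes of −0.59 and −0.43. The CD9 call was lost without not treated replicate 2 (FDR = 0.0111). CD34 had 0, 2 and 0 counts without and 10, 6 and 2 with maltonis, too few to pass the filter.

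Of 14 promyelocyte genes, which include CD33 and ANPEP, all were tested, with 5 higher, 7 lower and a median of −0.22. MPO fell from a mean of 14612 to 7425 CPM, a log2 fold change of −0.98 (standard error 0.0827, FDR = 8.56e-06). CTSG, a serine protease of the same granules, rose by 2.34 on the log2 scale, and CEBPA, a transcription factor of granulocyte development, fell to −0.96. Of the markers of other cell types, 10 were tested, 2 were higher and 7 lower, with a median of −0.86. ITGA2B and PECAM1 rose by 0.63 and 0.74, and VWF and NCAM1 fell to −3.15 and −2.31. VWF passed the filter only through the not treated libraries, and the PECAM1 call was lost without not treated replicate 2 or any 1 maltonis-treated library, with FDR values from 0.0140 to 0.0444.

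**Figure D4:**
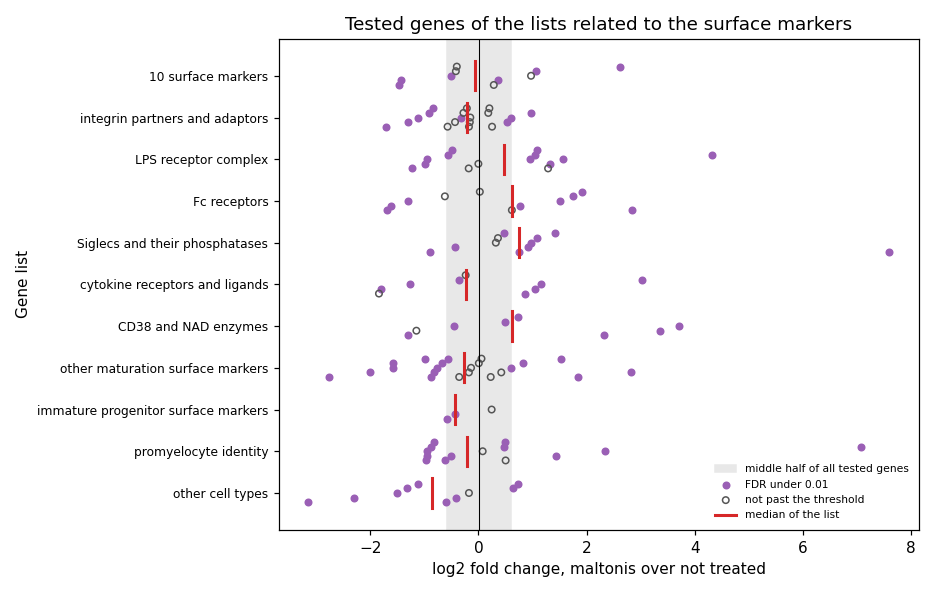
Log2 fold change, maltonis over not treated, of every tested gene in the 10 surface markers and the 10 related lists, filled where the FDR was under 0.01, with the median of each list in red and the span between the quartiles of all tested genes shaded. Every list has genes on both sides of 0, ELANE (7.07) and SIGLEC1 (7.60), which passed the filter only through the treated libraries, lie highest, and the medians range from −0.86 to 0.75.

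Per kilobase, ITGB2 was the most abundant marker in both groups, at 38.3 ± 2.52 RPKM without and 13.8 ± 0.816 RPKM with maltonis (SD, n = 3). In not treated cells it was followed by CD33 (7.67 RPKM), CSF3R (4.69), CD38 (3.21), ITGAM (2.38), FCGR1A (2.11), CSF1R (1.86), ITGAX (0.450), CD14 (0.155) and KIT (0.0962). The ranges of ITGAM and FCGR1A, of FCGR1A and CSF1R, and of CD14 and KIT overlapped. After maltonis the order was CSF3R (6.06 RPKM), CD33 (5.39), ITGAM (4.98), CSF1R (2.31), FCGR1A (1.59), CD38 (1.19), KIT (0.579), ITGAX (0.340) and CD14 (0.318). CSF3R and CD33, CD33 and ITGAM, and ITGAX and CD14 overlapped there. CD38 moved from the 4th to the 7th place and ITGAM from the 5th to the 4th. These RPKM values depend on the exons counted. With only the exons of RefSeq-linked transcripts, ITGB2, CD33 and CSF3R stood at 82.8, 28.3 and 11.4 RPKM in not treated cells.

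Likeness to a marker was measured as the root mean square difference of log2(CPM + 0.1), centered on each gene's mean, over the 6 libraries. The genes nearest to KIT were RGS13 (0.0876), PPL (0.110) and C9orf139 (0.120), with log2 fold changes of 3.89, 2.46 and 2.39 against 2.62 for KIT. RGS13 had a mean of 0.0379 CPM without treatment, under the floor, and passed the filter only through the treated libraries. The 0.1 CPM added is larger than that mean, which narrows the change of RGS13 in this measure. Nearest to ITGB2 were SEPT9 (0.0273), API5 (0.0286) and TRIB1 (0.0307), with log2 fold changes of −1.42, −1.49 and −1.51. Within a small fixed margin of these distances to ITGB2, the gene counts were 65, 68 and 76. For the distances to KIT, the gene counts were 6, 12 and 16. The genes named are thus examples from a group at similar distance, and a specific link to either marker was not tested.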

How the data were processed

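RNA was sequenced from 6 libraries of NB4 cells, 3 not treated and 3 given maltonis, prepared with a stranded total RNA kit. The authors deposited 1 table per library of raw counts of reads on each gene symbol, made with HTSeq. The submitters' processing notes also name TopHat, Bowtie2 and the build hg19. Versions, the annotation and the strand setting of the counting are not given in the sources used here, so values of paralogs and overlapping genes are uncertain. Totals ranged from 18492154 to 38205483 counts.

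Groups and replicate numbers come from the sample titles. Counts were filtered with filterByExpr, scaled with TMM and tested with the quasi-likelihood test of edgeR 4.0.16 in R 4.3.3 without covariates, with Benjamini-Hochberg adjustment over 13209 genes and a threshold of 0.01. Each FDR given for a gene is from this test unless another is named. Standard errors are the log2 fold change divided by the root of its F statistic. A 95% interval is the exact binomial one. Replicates were compared pairwise before averaging, and all pairs differed by more than counting noise (chi-square per degree of freedom 4.15 to 33.1). Gene lengths are the summed exons in GENCODE 29, found for 20195 symbols directly and for 1542 by a synonym, with none for 1631. They served only for levels between genes, with no coordinates taken from it. The fit was tested on simulated data with few changed genes, as many higher as lower, and no effect of the library code. That test does not show how the fit behaves where most genes are called, as here. Figures were drawn with matplotlib 3.10.9.

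The markers and lists were chosen with earlier results of these data known. The genes named besides the markers are, in each list, the 2 largest increases and decreases among called genes with a mean of at least 1 CPM in the higher group, and direct partners of the markers fixed by name. ITGA4, ICAM2, ICAM3, FERMT3, TLN1, TLR1, TLR2, TLR6, IRAK4, MYD88, FCAR, SYK, the Siglecs other than SIGLEC1, NMNAT1, FUT4, CR1, MME, CEACAM8, HLA-DRA, CD3D, NKG7 and EPCAM fall outside this rule and were named after their values were seen. Some genes that the rule would name are not reported here. Alternatives covered the scaling, the test (DESeq2 1.42.0 among them), the filter, the replicate block, the library code, each library left out and the gene length. The interaction with the library code and the ratio of integrin chains were added after seeing the data.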

Additional observations from a re-analysis of the deposited data

Results flagged for a closer look

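CSF1R is given because an interaction of treatment with the library code, added after seeing the data, passed 0.05: the log2 fold change in replicates 2 and 3 minus that in replicate 1 was −1.07 (edgeR's interaction term, Benjamini-Hochberg adjusted over all genes, FDR = 0.0461). The log2 difference was 1.13 in replicate 1 and 0.05 in replicates 2 and 3, and the low value was that of not treated replicate 1, at 99 counts or 5.27 CPM. That code holds 1 library per group, so the spread in this test comes from replicates 2 and 3 alone, and the code and this library cannot be told apart.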

How the results depend on the processing

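Over 16 refitted settings and a looser FDR of 0.05, between 2 and 4 of the 10 markers were called higher and between 3 and 5 lower, and no marker changed sign. KIT, ITGAM, ITGB2, CD38 and CD33 passed in all 16 settings. CSF3R passed in 11 and missed the threshold when any library but not treated replicate 1 was left out. CD14 passed only in the likelihood ratio test (FDR = 0.00916) and FCGR1A only with the library code as a term (FDR = 0.00904). At an FDR under 0.05, 74.0% of tested genes and 5 lower markers passed. Total counts as the only scaling raised the median of all tested genes to 0.13 on the log2 scale, left 1 marker past the downward fold criterion (ITGB2), and left 1 lower gene among the immature markers, since CD9 missed the threshold (FDR = 0.0178). Without a filter, 1 immature marker was higher. With a minimum of 1 CPM, and in replicates 2 and 3 only, 3 genes of the LPS list were lower. With the library code as a term, 5 integrin partners were higher and 10 lower, in place of 3 and 6. Calls rose over the whole table as well in that setting, to 4731 higher and 4743 lower genes from 4213 and 4239. MYD88, which passed in no setting, had log2 fold changes from −0.63 to 0.34 with 1 library left out. The cause of these shifts was not tested. Leaving out each library in turn gave 3 to 4 lower LPS genes, 3 to 5 higher NAD genes, 1 to 2 lower immature markers and 1 to 2 higher markers of other cell types. It gave 17.3 to 20.4 percentage points for the gain in the ITGAM share of α chains. With RefSeq-linked exons or the longest transcript in place of all exons, ITGAM ranked 6 and FCGR1A 5 in not treated cells. With RefSeq-linked exons CD33 ranked 2 and CSF3R 3 after maltonis.

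Under a block on the replicate number, 4602 genes were higher and 4620 lower in place of 4213 and 4239, and the same 3 higher and 3 lower markers were called. Deviations of same-numbered libraries correlated with r = 0.301, 0.0852 and 0.161 for replicates 1, 2 and 3 across genes, which are not independent replicates. Not treated replicate 2 correlated better with maltonis replicate 3 (0.123), so the numbers were not taken to pair the libraries. The signs did follow the library code. Every pair across groups with the same code had a positive r (0.0852 to 0.301), and every pair with different codes a negative one (−0.232 to −0.162). The main test has no term for the code, which entered only as an alternative. At these depths the floor of 3 counts stood at about 0.16 CPM in the shallowest library, and a level below it rests on fewer counts and is uncertain.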
